A study of Mus musculus with 2 samples.

Results

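The genes described here are 34 genes of glucose breakdown and of the response to low oxygen, chosen by name, out of 37074 gene names on the array. They are the glucose and lactate transporters, the enzymes of glycolysis with their isoforms, the pyruvate dehydrogenase step, and the hypoxia factor Hif1a with some of its targets and regulators. Probes were taken as members where the array's own gene name matched, and all 34 names were found, on 84 probes. Expression was measured in 46C, a mouse embryonic stem cell line that carries a green fluorescent reporter in the neural gene Sox1. Both cultures were grown in serum with leukaemia inhibitory factor (LIF) on feeder cells, which were removed before harvest. The study, by its title, asks whether the long noncoding RNA LincU keeps cells in naive pluripotency by limiting ERK activity. The 2 groups are shCtrl, cells labelled with a control short hairpin RNA, and shLincU, cells with LincU knocked down, and each group is 1 one-colour Agilent array. By its title the shCtrl sample is wild type, and the labels do not say whether a hairpin line was a clone or a pool. With 1 array per group there is no replicate, so no difference below has a test or a p-value, and every value describes these arrays only. LincU itself was not analysed here, so the knockdown was not checked and directions rest on the labels.

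Glycolysis splits glucose into pyruvate and gains ATP without oxygen. Pyruvate is then either reduced to lactate and exported, or carried into mitochondria, where the pyruvate dehydrogenase complex feeds it to the tricarboxylic acid cycle. Hypoxia-inducible factor, made of HIF1A and ARNT, binds DNA at a short core motif and raises many glycolytic genes, while the prolyl hydroxylases EGLN1 and EGLN3 mark HIF1A for destruction when oxygen is present. In pluripotent cells the balance is known to shift with state: naive cells use both glycolysis and respiration, and primed epiblast cells lean on glycolysis with high HIF1A activity. The genes are therefore followed in pathway order below.

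Signals are given as log2 of the processed intensity relative to the 75th percentile of the same array, which was 922 intensity units for shCtrl and 610 for shLincU. Differences are log2 values, shLincU minus shCtrl, averaged over the probes of a gene that were well above background on both arrays. Of the 84 member probes, 78 were well above background on both arrays and 6 on neither, and no member spot was saturated, so every member had a measured difference. The markers of embryonic stem cells were present on both arrays, with 12 of 12 well above background and a summed signal of 595 and 671 times the 75th percentile on shCtrl and shLincU. Most of that sum came from Dppa5a, at 8.63 on shCtrl and 8.88 on shLincU, so it does not describe the markers in general. Of the 12, 9 were higher and 3 lower on shLincU, with a median difference of 0.058. Feeder fibroblast markers summed to 8.71 and 3.60 times the 75th percentile. Of 10 such markers measured on both arrays, 7 were at least 1.5-fold lower on shLincU, while Twist2, Col3a1 and Col1a1 were higher by 0.71, 0.66 and 0.47. Lum was not well above background on shCtrl, nor Pdgfra on shLincU. The part of feeder RNA in the differences below was not tested. In RNA from a whole culture, fewer cells of a type and less RNA per cell cannot be told apart.

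As a group the glycolysis and hypoxia genes differed little between the arrays. None of the 34 differed by 2-fold, where 1.21% of the 21042 genes measured on both arrays were higher by that size and 1.46% lower. The median difference of the members was -0.022, against 0.041 for all genes, and 15 members were higher and 19 lower. Of all 21042 genes, 11800 were higher and 9242 lower, the background for each count of higher and lower genes below. Of the members, 32 lay within 0.5 of 0, or 94.1%, against 86.6% of all genes and 93.1% of genes at or above the median signal, a level that 30 of the 34 reached. At a smaller size of 1.5-fold, 0 members were higher and 2 lower, Eno2 and Pfkfb4, beside 5.15% and 4.47% of all genes. In a list of this length such counts lie near the background and show nothing about the list. The isoforms of enolase and of lactate dehydrogenase included genes with opposite differences, Eno1 against Eno2 and Ldha against Ldhb. Each was larger than the error that the scanner software assigns, a bar that many genes pass. Over all genes the median of that error was 0.20, and 10945 of the 21042 genes lay within 0.2 of 0. The error covers neither the spread between probes nor that between cultures.

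**Figure D1:**
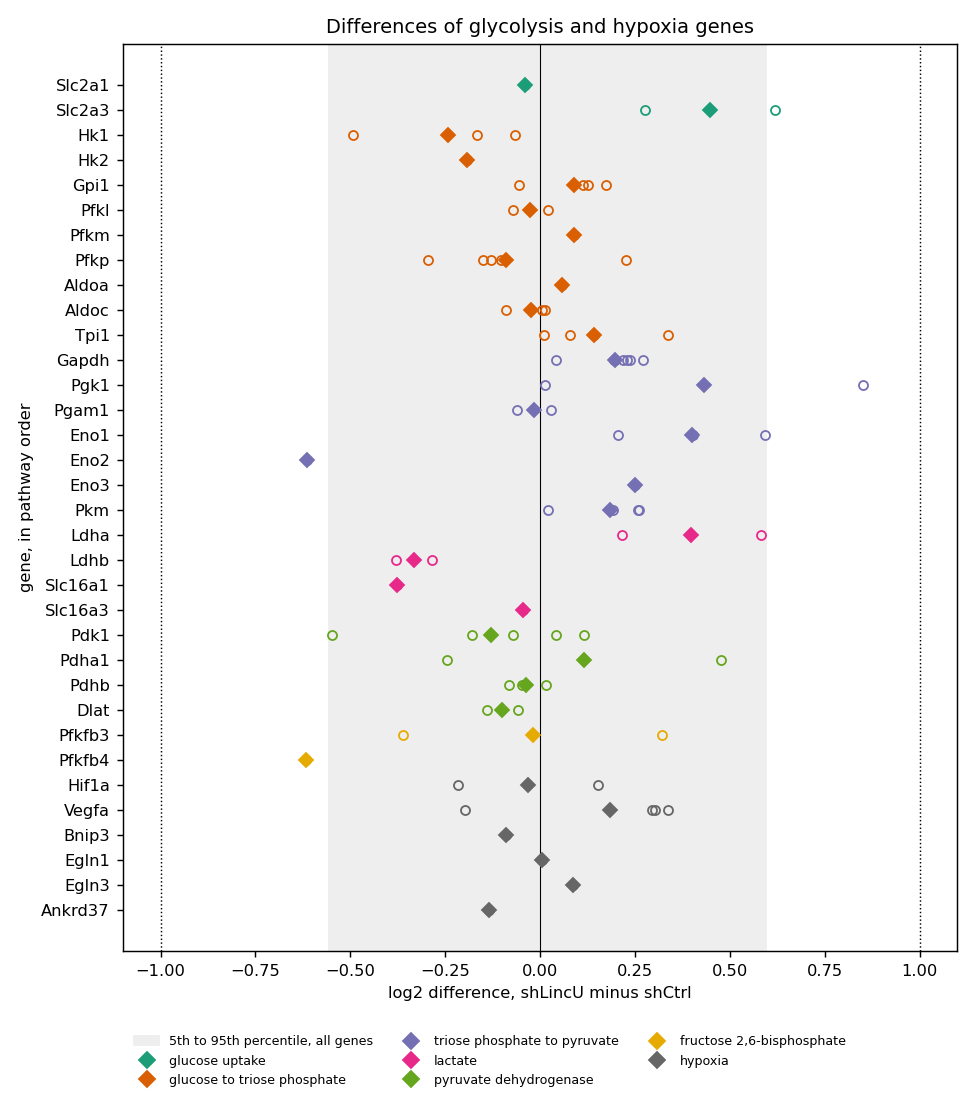
Each row is a gene in pathway order, and the x axis is the log2 difference, shLincU minus shCtrl. Open circles are single probes well above background on both arrays, diamonds are gene means (coloured by step), the grey band spans the 5th to 95th percentile of all genes (-0.56 to 0.59), and dotted lines mark 2-fold; all gene means lie between -0.62 and 0.45, and the Ldha and Ldhb probes sit on opposite sides of 0.

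Directions are given relative to the other genes of an array. Scaled to 8 E1A spike-in controls, whose signal was 0.32 higher on the shLincU array before scaling, the median of all genes moved by -0.91 and all 34 members were lower. Such a scaling moves every gene alike and leaves the order of the members unchanged. Relative to the median of all genes, 21 of the 34 kept their side under each of the 16 alternative settings in which they could be measured, 6 above it and 15 below. The 6 above were Slc2a3, Gapdh, Eno1, Eno3, Pkm and Ldha.

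**Figure D2:**
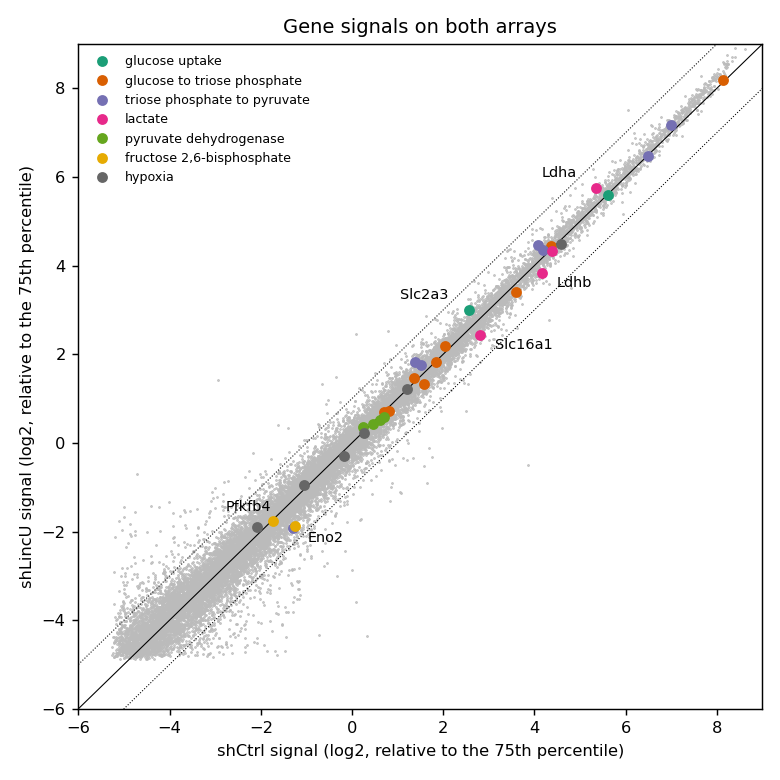
Each grey point is a gene measured on both arrays, placed by its shCtrl signal (x) and shLincU signal (y), both log2 relative to the 75th percentile. Coloured points are the 34 glycolysis and hypoxia genes by step; all lie between the dotted 2-fold lines, most of them among the brighter genes, with Ldha and Slc2a3 above the diagonal and Ldhb, Slc16a1, Eno2 and Pfkfb4 below it.

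The 5 sequences below show what was read for some members of the later steps and of glucose uptake. Each is a 60-base array probe, 5′ to 3′ in the sense of the transcript, and each reads without a stop codon in at least 1 frame. The Ldha and Ldhb probes detect the interchangeable subunits of lactate dehydrogenase, and the Eno1, Pkm and Slc2a3 probes detect an enolase, a pyruvate kinase and a glucose transporter. In mm9, the build of the array, the Ldha probe lies at chr7:54103010-54103069 on the plus strand. The others span an intron: Ldhb at chr6:142444206-142447028 (minus strand), Eno1 at chr4:149618134-149618359 (plus), Pkm at chr9:59518501-59519397 (plus) and Slc2a3 at chr6:122681586-122682419 (minus).
Ldha: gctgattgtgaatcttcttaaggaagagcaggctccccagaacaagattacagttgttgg
Ldhb: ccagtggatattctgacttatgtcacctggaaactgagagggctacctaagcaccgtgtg
Eno1: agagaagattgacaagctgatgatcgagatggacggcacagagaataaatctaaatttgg
Pkm: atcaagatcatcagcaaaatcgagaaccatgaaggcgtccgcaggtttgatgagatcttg
Slc2a3: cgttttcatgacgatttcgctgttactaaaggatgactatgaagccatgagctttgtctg
On these probes Ldha was higher by 0.22, Eno1 by 0.40, Pkm by 0.26 and Slc2a3 by 0.62, and Ldhb was lower, at -0.38.

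Glucose enters the cell through facilitative transporters, of which 2 are members. Slc2a1 (GLUT1), the widely expressed transporter, had a signal of 5.62 on shCtrl and 5.58 on shLincU, a difference of -0.039 on its single probe. Slc2a3 (GLUT3), a high-affinity transporter of the epiblast and neurons, was higher on both of its probes. Its bright probe at chr6:122678075-122678134 read 5.64 and 5.92, a difference of 0.28. The dimmer probe printed above read -0.52 and 0.10. The mean difference of Slc2a3 was 0.45 (1.36-fold), the highest of the 34 members in the main setting, with an SD of 0.24 between its 2 probes. The dimmer probe lay beside other spots that differed between the arrays, and without it Slc2a3 stood at 0.28. Slc2a3 exceeded Slc2a1 by 0.49, and the probes of the genes did not overlap.

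In the steps from glucose to triose phosphate the 9 members lay between -0.24 and 0.14, with 4 higher and 5 lower. The hexokinases, which trap glucose as its phosphate, were the lowest. Hk1 had 3 measured probes, all lower: its brightest read 5.97 on shCtrl and 5.80 on shLincU, the next 2.40 and 1.91, and the dimmest -3.63 and -3.69. The mean of Hk1 was -0.24 (SD between probes 0.22), and Hk2, at 3.60 and 3.41, was at -0.19. Both hexokinases were thus slightly lower, and they differed from each other by only -0.049. Gpi1, the isomerase that follows, was at 0.089 over 4 probes.

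The 3 phosphofructokinase genes, whose products form the main control point of glycolysis, showed no common direction. Pfkl, the liver type, was at -0.026, Pfkm, the muscle type, at 0.090, and Pfkp, the platelet type, at -0.090, with 5 Pfkp probes from -0.29 to 0.23. Aldoa, the main aldolase, read 8.14 and 8.20, a difference of 0.059, and Aldoc, the brain aldolase, was at -0.024. With quantile normalization Aldoa was at -0.20, and in the deposited value table at -0.19. Tpi1, which interconverts the triose phosphates, was at 0.14, with all 4 probes above 0.

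Probes spotted many times show how finely the arrays resolve such values. An Aldoc probe with 9 spots in use had a mean difference of 0.0052 with an SD of 0.043 between spots. Another, with 10 spots, was at -0.090 (SD 0.071), lower in 9 of 10 spots. The Pgam1 probe with 10 spots was at 0.029 (SD 0.031), higher in 8 of them. Spots of 1 array share the same RNA, so this spread is technical and does not stand for cultures. It also leaves out the choice of scaling, on which the sign of values this small depends. As a gene, Pgam1 ranged from -0.15 (deposited value table) to 0.045 (lower rows) over the settings other than E1A scaling. The spread between probes of a gene was wider than that between spots. Its median SD was 0.19 over the 21 members with several probes, against 0.18 over the 7132 genes with several probes.

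In the payoff steps from triose phosphate to pyruvate 5 of 7 members were higher, with a median of 0.20, the value of Gapdh. Gapdh, the dehydrogenase that makes the first energy-rich intermediate, was higher on all 7 of its probes, by 0.042 to 0.27, with a mean of 0.20 (SD 0.074). Its brightest probe read 8.09 and 8.33. The mean of Gapdh depended on the scaling. It was 0.048 with quantile normalization, 0.086 with cyclic loess and 0.016 in the deposited value table. Gapdh has many processed pseudogenes, so the Gapdh probes may share signal with them. Pkm, the pyruvate kinase of most dividing cells, was higher on all 4 probes, by 0.022 to 0.26. The brightest Pkm probe read 7.14 and 7.34. Gapdh is often used as a reference gene, and here both genes sat a little above the median of all genes under each setting tried. The smallest gap was 0.0075 for Gapdh and 0.020 for Pkm.

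Eno1, the common enolase, was higher on all 3 probes. They read 7.17 and 7.38, 4.19 and 4.59, and 0.85 and 1.45, and the mean difference was 0.40 (1.32-fold, SD 0.19). The muscle enolase Eno3 read 1.51 and 1.76, a difference of 0.25. The neuronal enolase Eno2 went the other way, at -1.30 on shCtrl and -1.91 on shLincU, a difference of -0.61 (fold 0.653). The differences of Eno1 and Eno2 were thus 1.02 apart, the widest gap among the 14 pairs of related genes compared. Eno2 rests on 1 probe at chr6:124710388-124710447, which lay beside other discordant spots. With background corrected by normexp it was at -0.41.

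The kinase Pgk1 and the mutase Pgam1 lie between these steps. Pgk1 had a mean of 0.43, but its 2 probes disagreed. The bright probe, at chrX:103398915-103398974, read 7.86 and 7.88, a difference of 0.014. The other, at chrX:103398776-103398835, matches the opposite strand by its coordinates and read only -5.08 and -4.23, a difference of 0.85. Without that probe Pgk1 was at 0.014, so its mean rests on the opposite-strand probe. The bright probe lay beside spots that differed between the arrays, and without it Pgk1 was at 0.85. Pgam1 was at -0.015 over 2 probes.

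In the lactate step both probes of each dehydrogenase isoform had the same sign. Ldha encodes the subunit that favours making lactate from pyruvate, and Ldhb the subunit that favours the return to pyruvate. Ldha read 7.37 on shCtrl and 7.95 on shLincU on its bright probe at chr7:54110937-54110996, and 3.34 and 3.55 on the probe printed above. Both probes were higher, and the mean was 0.40 (1.32-fold, SD 0.26). Ldhb read 5.73 and 5.45 on its bright probe at chr6:142438829-142438888, and 2.61 and 2.23 on the intron-spanning probe. Both were lower, with a mean of -0.33 (fold 0.795, SD 0.068). Ldha exceeded Ldhb by 0.73, a ratio of 1.66-fold between their changes, and the lowest Ldha probe lay above the highest Ldhb probe. Relative to all genes, Ldha ranged from 0.23 to 0.56 over the settings and Ldhb from -0.50 to -0.31.

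The transporters that carry lactate and pyruvate across the membrane were not higher. Slc16a1 (MCT1) read 2.81 and 2.44, a difference of -0.38 (fold 0.771). Slc16a3 (MCT4), an exporter of glycolytic cells and a HIF target, read 4.38 and 4.33, a difference of -0.046 on the probe that could be measured. Of the 4 lactate genes Ldha alone was higher, though with no filter on dim probes Slc16a3 turned to 0.17.

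At the entry to mitochondria the 4 members lay between -0.13 and 0.12. Pdk1, the kinase that shuts the pyruvate dehydrogenase complex and a HIF target, had 5 probes from -0.55 to 0.11. The mean of Pdk1 was -0.13, and its brightest probe read 3.93 and 3.75. Pdhb and Dlat, subunits of the complex, were at -0.038 and -0.099. Pdha1 was at 0.12, though its bright probe read 3.74 and 3.49 (-0.24) and a dim probe of another transcript -3.26 and -2.79 (0.48).

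The PFKFB enzymes make and remove the sugar bisphosphate that activates phosphofructokinase. Pfkfb4 was the lowest of the 34 members, at -1.26 on shCtrl and -1.87 on shLincU, a difference of -0.62 (fold 0.652) on the probe at chr9:108934652-108934711. A further probe of Pfkfb4 was not well above background on either array. With normexp Pfkfb4 was at -0.42, and with no filter on dim probes at -0.11. Pfkfb3 had a mean of -0.020 over probes that disagreed, 0.99 and 0.63 (-0.36) on the bright one and -4.47 and -4.15 (0.32) on the dim one.

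The hypoxia genes proper were near 0, with 6 members between -0.13 and 0.18 and a median of -0.014. Hif1a, the oxygen-regulated subunit, read 2.46 and 2.62 on its bright probe, a difference of 0.15. That probe lay beside spots that differed between the arrays. The other measured probe of Hif1a matches the opposite strand and was at -0.22, the value left without the bright probe. Since HIF1A is controlled mainly at the protein level, its messenger does not measure its activity. The target Bnip3, a mitophagy receptor, read 4.57 and 4.49 (-0.089). Ankrd37 read -0.17 and -0.31 (-0.13). Egln1 read 1.20 and 1.21 (0.0040) and Egln3, an oxygen sensor and itself a HIF target, -1.05 and -0.96 (0.087). Vegfa, the growth factor of blood vessels, had a mean of 0.18, but its brightest probe read -0.29 and -0.49 (-0.20), and the other 3 were higher by 0.30 to 0.34. All 6 lay between the 25th and 75th percentile of all genes, -0.15 and 0.22.

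**Figure D3:**
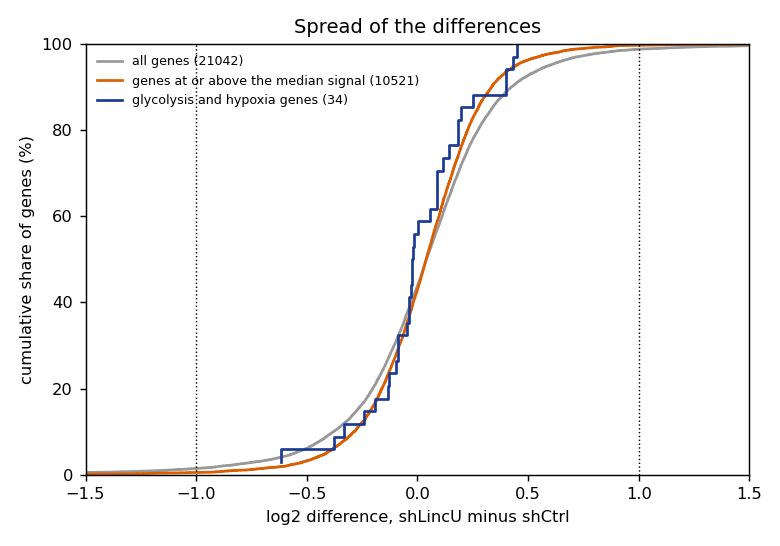
The cumulative share of genes (y, in percent) is plotted against the log2 difference, shLincU minus shCtrl (x), for all 21042 genes, for the 10521 genes at or above the median signal, and for the 34 glycolysis and hypoxia genes. The line of the 34 genes runs close to that of the brighter genes and ends inside the dotted 2-fold marks.

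The core motif bound by HIF, ACGTG, was searched on both strands in the RefSeq promoter windows of the GRCm38.p6 build, which run from 250 bases before to 50 after a gene's start. Of the 34 members 33 had a window. The 1 without was Slc2a3, the highest of the 34 at 0.45, so it is absent from the comparison by motif. The motif occurred in 21 of these 33, or 63.6%, against 21.8% of 27025 symbols in the table, where genes with more windows have more chances. By window, 24 of 47 member windows held the motif (51.1%), against 19.6% of all 32851 windows. HIF targets were among the genes chosen by name, so these shares describe the choice of genes and not the arrays. Leaving out matches inside CACGTG, the box bound by MYC and related factors, 20 members and 15.3% of symbols held the motif. A match describes the letters only and is no evidence of binding. Members with the motif had a median difference of -0.020 and members without it -0.058, and 9 of 21 against 5 of 12 were higher. Stretches upstream of 5 of these genes, from the fermentative enzymes to the hypoxia targets, are shown in lower case with ACGTG or its complement CACGT in capitals. They lie at chr7:46845743-46845802 (Ldha, plus strand), chrX:106186942-106187001 (Pgk1, plus), chr4:119108682-119108741 (Slc2a1, plus), chr7:138909581-138909640 (Bnip3, minus) and chr8:45999851-45999910 (Ankrd37, minus).
Ldha: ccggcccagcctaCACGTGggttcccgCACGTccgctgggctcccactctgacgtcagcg
Pgk1: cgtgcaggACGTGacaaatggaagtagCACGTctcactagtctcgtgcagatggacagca
Slc2a1: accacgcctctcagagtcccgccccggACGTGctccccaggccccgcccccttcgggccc
Bnip3: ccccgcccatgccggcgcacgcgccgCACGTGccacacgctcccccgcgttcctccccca
Ankrd37: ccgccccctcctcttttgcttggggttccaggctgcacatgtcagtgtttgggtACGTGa
In Bnip3 the motif was found only inside CACGTG, so it is the member lost when such matches are left out. Of these 5 genes Ldha was higher by 0.40, Pgk1 by 0.014 on its own strand, and Slc2a1, Bnip3 and Ankrd37 were at -0.039, -0.089 and -0.13.

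Other genes of the pathway were read from fixed lists around it. Of 19 other isoforms of glycolytic genes, 12 were measured on both arrays, with a median of -0.18, 5 higher and 7 lower. Pgk2, Gapdhs, Pklr and Slc2a2, forms of other tissues, were among those well above background on neither array, and Hkdc1 and Ldhd on shCtrl only. Among the larger differences were those of Slc2a4, the insulin-regulated transporter, at -0.51, and Pgm1 at -0.46, each on 1 probe. Under RefSeq names the symbol Pgm1 falls on another probe, at -0.17.

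Around pyruvate, the list of further pyruvate dehydrogenase genes and controls had 8 of 10 members lower and a median of -0.25. Of all 21042 genes, 9242 were lower. Pcx, the carboxylase that turns pyruvate into oxaloacetate, read 2.41 and 1.85 (-0.56) and kept that value with normexp (-0.59). The kinase genes Pdk4 and Pdk2 were at -0.48 and 0.34. The carrier genes Mpc1 and Mpc2, which bring pyruvate into mitochondria, were at -0.27 and -0.26, with an SD between probes of 0.55 and 0.44. None of the 10 reached 1.5-fold.

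The oxygen-sensing list, which holds the partners of HIF1A and its degradation machinery, had 9 of 10 genes measured, with a median of 0.083 and 6 higher. Hif3a read 0.0040 and 0.43 (0.43), the ligase scaffold Cul2 was at -0.32 and the hydroxylase Egln2 at 0.23. Of 18 other hypoxia targets 17 were measured, 7 higher and 10 lower, with a median of -0.030 and none at 1.5-fold. Ddit4, an inhibitor of mTOR signalling, was the highest at 0.57, from 3.37 to 3.95, and Ndrg1 was at 0.39. Gbe1, the glycogen branching enzyme, was at -0.41. Car9, the carbonic anhydrase widely read as a hypoxia marker, was at -0.030.

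Of 7 pentose phosphate genes 4 were higher, with a median of 0.17. Tkt, the transketolase, was at 0.65 with an SD of 0.60 between its 2 probes, and at 1.07, past 2-fold, without the probe beside discordant spots. Pgls was at 0.31 (0.22 without spots beside discordant spots) and the epimerase Rpe at -0.47. Of 6 gluconeogenesis genes 4 were measured. Fbp2, the muscle fructose bisphosphatase, was the only gene of these lists at least 2-fold apart in the main setting, reading -2.58 and -3.89 (-1.31), though with normexp it was at -0.48. Fbp1 was at -0.50 on 1 probe beside spots that differed between the arrays, and at -0.34 with normexp. The mitochondrial Pck2 was at 0.29, while Pck1 and G6pc were well above background on neither array. All 20 tricarboxylic acid cycle genes were measured, 6 higher and 14 lower, with a median of -0.054. Sucla2, a subunit of succinyl-CoA synthetase, was at -0.88 on 1 probe beside other discordant spots, Sdhc, a subunit of succinate dehydrogenase, at -0.55, and Suclg1 at 0.48 with probes that differed.

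**Figure D4:**
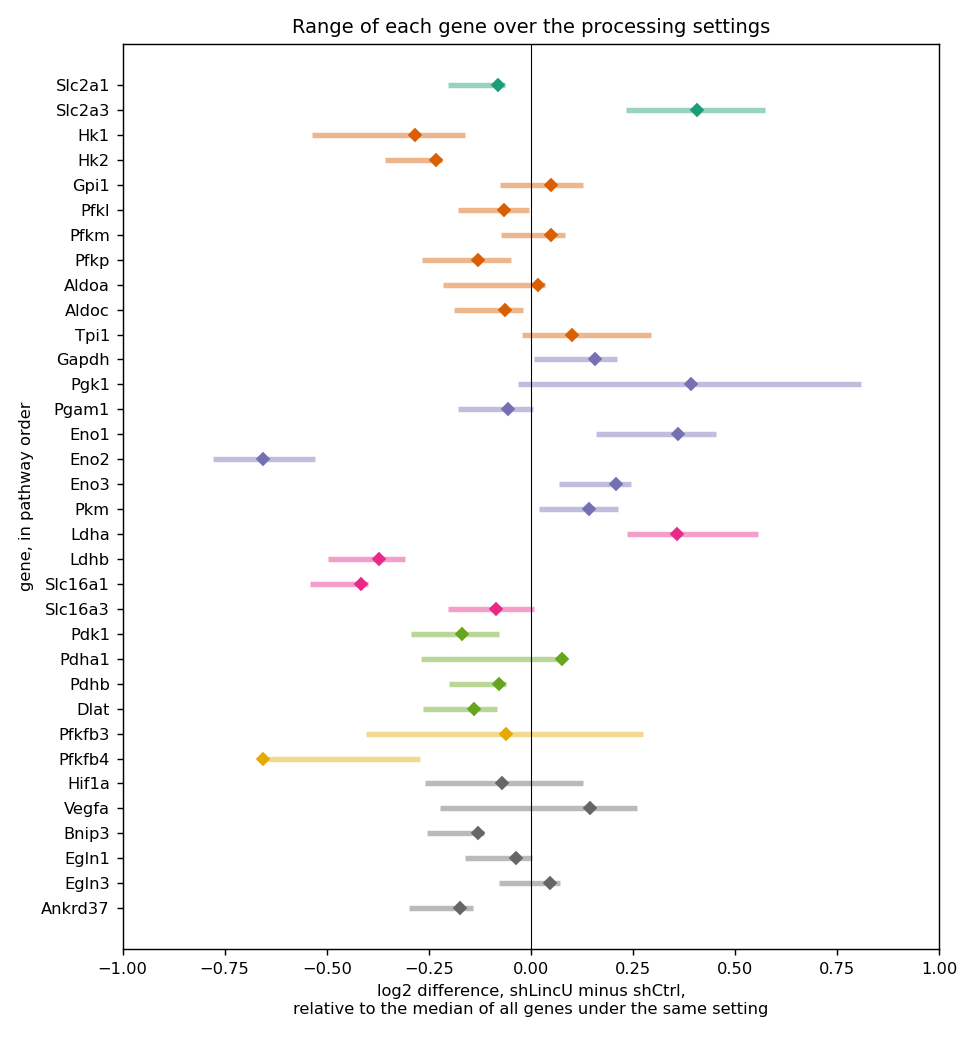
For each gene in pathway order the bar spans the lowest to highest log2 difference over the main and 16 alternative settings, relative to the median of all genes under the same setting (x axis), and the diamond is the main value. The bars of Slc2a3, Eno1 and Ldha lie above 0 and those of Eno2, Ldhb and Slc16a1 below 0, while those of Pgk1, Pfkfb3, Vegfa and Hif1a cross it.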

How the data were processed

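Cy3-labelled RNA was read on 1 one-colour array per group. Per the submitters' processing notes, the authors took the deposited intensity values from Agilent Feature Extraction 10.7.1.1. Spatial and multiplicative detrending corrected the processed intensity, per the file headers. The deposited files hold other columns with flags of 0 or 1. The deposited value table holds log2 values, normalized by the authors in a way not given in the sources used here; over 56572 probes its slope on the scanner's log2 signal was 0.98 and 1.01, its column medians were 5.65 and 5.65, and its centring stays unknown.

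Computed here were log2 processed intensity minus the array's 75th percentile, with control and outlier spots left out, spots averaged per probe, and probes well above background on both arrays averaged per gene name. Sizes of 2-fold and 1.5-fold were counted, with no test. No intervals can be given: the number of arrays limits the precision. Members, lists, sizes and alternatives were chosen with earlier results of these data known. Named were all members and up to 3 genes per related list with the largest difference, or any at least 2-fold apart; Mpc1, Mpc2 and Car9 were named after their values were seen. Some genes of these lists are not reported here by name. A spot lay beside discordant spots if at least 2 of 14 neighbours differed 2-fold in the same direction as each other, whatever its own direction. Probe strands come from array coordinates. The calculation was tested on simulated data. Python 3.11.15, pandas 2.3.3, numpy 2.4.6, R 4.3.3 and limma 3.58.1 were used.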

Additional observations from a re-analysis of the deposited data

How the results depend on the processing

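The alternatives were normexp (offset 50), quantile normalization, cyclic loess, median centring, E1A scaling, the deposited value table, no filter on dim probes, the positive-and-significant flag in its place, the brightest probe, the median over probes, RefSeq names, outlier spots kept, the upper or the lower rows of the array, no spots beside discordant spots, and, added after seeing the data, no opposite-strand probes. No paired analysis was possible because shCtrl and shLincU are single arrays, so neither could be left out. The count of 0 members at 2-fold became 11, all lower, with E1A scaling, which also took the member median to -0.93, and 2 at a size of 1.5-fold. Among the other settings the member median lay between -0.076 (median centring) and 0.030 (lower rows). The 563 genes at least 2-fold apart became 206 with normexp, 6795 with E1A scaling, 2796 with no filter on dim probes, 1858 with the positive-and-significant flag, 242 in the upper rows (of 12814 genes measured there, against 426 of 12771 in the lower rows), 2024 at 1.5-fold and 177 at 3-fold. In the related lists the count of 1 became 0 with normexp. Of 528 values of single members under the alternatives, 461 moved by less than the scanner's error of the difference. Some of these could not move, such as members with 1 measured probe under the brightest probe or the median over probes. The count is therefore no measure of how stable the values are. Normexp, E1A scaling and the other sizes used the same 21042 genes, while the filters admitted more genes and the rows fewer. E1A scaling moved every gene alike, and a size only changes the cut. Any further cause of these changes was not tested.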
